A study of Danio rerio with 4 samples.

Results

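The genes of the proteasome, the large protease that degrades ubiquitin-tagged proteins, were examined in *gsp* and *rhs* mutant zebrafish. Every row of the expression table whose gene symbol begins with *psma*, *psmb*, *psmc*, *psmd*, *psme*, *psmf* or *psmg* was taken, which gave 51 of 27423 rows under 49 symbols. Of these, 50 rows are subunits of the proteasome, its activators, its inhibitor or its assembly chaperones. The other row, *psmc3ip*, encodes a protein that acts in meiotic recombination and is no subunit, so it was set apart. Its values were 464 in the *gsp* mutant, 565 in its sibling, 929 in the *rhs* mutant and 919 in its sibling.

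Background helps to order the members. The 26S proteasome consists of a barrel, the 20S core, closed at its ends by the 19S cap. The core is a stack of rings of alpha subunits (*psma* genes), which gate the entry, and beta subunits (*psmb* genes), of which *psmb5*, *psmb6* and *psmb7* encode the proteolytic ones. The cap holds a ring of ATPases (*psmc* genes) that unfold and feed in the substrate, and non-ATPase subunits (*psmd* genes) that bind ubiquitin chains, remove them or hold the cap together. In immune cells and after interferon, other catalytic beta subunits replace the constitutive ones and give the immunoproteasome, which favours peptides for antigen presentation. Activators (*psme* genes) can bind the core in place of the cap, *psmf1* encodes a protein that inhibits the core in vitro, and chaperones (*psmg* genes, *psmd5*, *psmd9*, *psmd10*) help to assemble core and cap.

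The RNA came from whole larvae at 48 hpf (hours post fertilisation), segregated by phenotype at 43 hpf, and each of 4 groups was 1 library of pooled larvae. The *gsp* mutants are homozygous for the *goosepimples* mutation, which lies in *myo5b* (Myovb in the labels), the gene of a vesicle-transporting myosin. The *rhs* mutants are homozygous for *romeharsha*, whose gene the labels do not name. Each sibling library mixed heterozygous and homozygous wild-type larvae of the same line, and all parents were heterozygous carriers. The comparison of each mutant with its siblings asks what differs in larvae whose outermost epidermal cells, the periderm, round up. With whole larvae, fewer cells of a type and less RNA per cell cannot be told apart.

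Values were read as estimated counts, taken as not scaled between libraries, and were floored at 1 by the authors. They summed to between 106188690 and 118680429 per library. The targeted gene did not serve to check the labels, because *myo5b* stood at the floor in both *gsp* libraries and at 193 and 87.8 in the *rhs* mutant and sibling. It was 1 of many rows of this kind: 326 rows were at the floor in both *gsp* libraries with at least 100 in both *rhs* libraries, and 373 rows the reverse. None of them was a proteasome row.

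The counts of rows and medians below cover rows with at least 100 in all 4 libraries, which 13633 rows of the table and 46 of the 50 proteasome rows reached. The 4 rows below this minimum were all of the immune-type catalytic subunits, and ratios given for rows below it rest on few counts. Ratios are mutant over sibling of the same line, and a row was counted as past the threshold at 1.48-fold or more in either direction. With 1 library per group there is no test. Brackets give exact Clopper-Pearson intervals at 95%, which cover counting error only, and only if the values can be read as counts.

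Proteasome genes were slightly lower in the *gsp* mutant as a class. The median ratio of the 46 rows was 0.832, a log2 ratio of -0.27, against -0.11 for all rows. Below 1 lay 38 of the 46 rows, beside 65.4% of all rows. In *rhs* 42 of 46 rows were below 1, beside 73.1% of all rows. The median ratio was 0.90, a log2 ratio of -0.15, but all rows had a median of -0.20. The *rhs* values therefore lay 0.046 above the table as a whole on the log2 scale and the *gsp* values 0.16 below it. Only 2 rows were past the threshold in *gsp*, *psma6b* and *psme2*, both higher, where 5.07% of all rows were higher and 4.83% lower. No proteasome row was past it in *rhs*, where 6.45% of all rows were higher and 12.6% lower.

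The direction in *rhs* depended on the scale. Below 1 lay 39 of the 46 rows after division by the library total, 32 after TMM scaling (edgeR's trimmed mean of log ratios) and 9 after centring on the median of all rows, with medians of -0.087, -0.038 and 0.046. The *gsp* direction held on these scales, with 36, 38 and 38 rows below 1 and medians of -0.14, -0.20 and -0.16. On the same scales the medians of all rows were 0.017, -0.042 and 0 in *gsp* and -0.13, -0.084 and 0 in *rhs*. As a share of the library, the 50 rows summed to 0.551% in the *gsp* mutant and 0.603% in its sibling, and to 0.571% in the *rhs* mutant and 0.605% in its sibling.

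**Figure D1:**
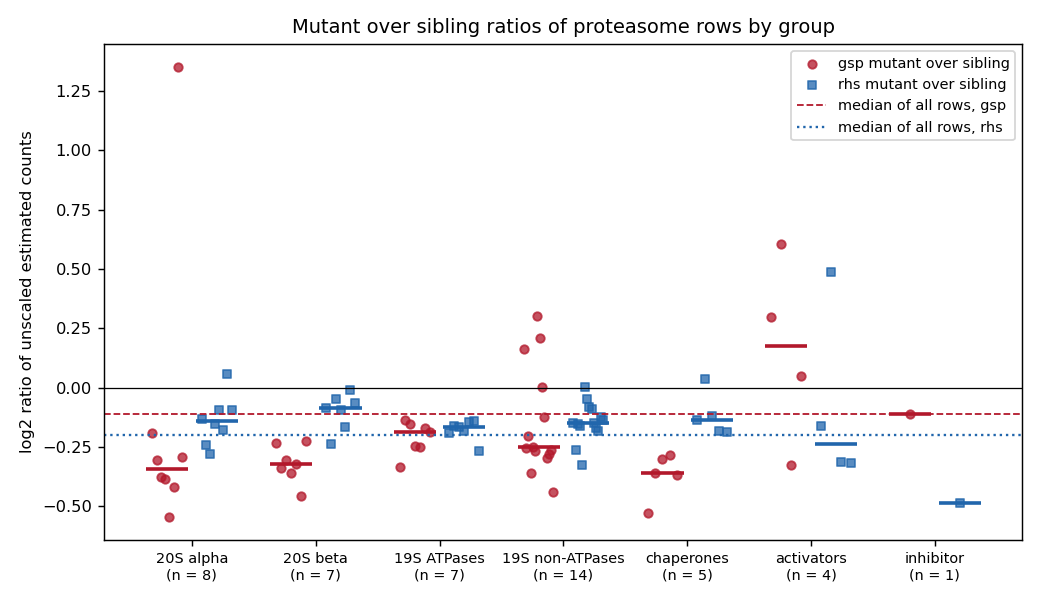
Log2 ratio of mutant over sibling (y axis, unscaled estimated counts) for the 46 proteasome rows with at least 100 in all 4 libraries, by group (x axis); circles are *gsp*, squares *rhs*, short bars group medians, and the broken lines the medians of all 13633 rows. In *gsp* the core, cap and chaperone medians lie under the line of all rows, whereas in *rhs* they lie above it.

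The alpha ring of the core was low in *gsp* in all but 1 row. Its 8 rows had a median log2 ratio of -0.34 for *gsp* and -0.14 for *rhs*, and without *psma6b* the other 7 had -0.38 and -0.15. Below the median of all rows lay 7 of the 8 in *gsp* and 2 in *rhs*. Among the proteasome rows that reached the minimum, *psma5* had the lowest ratio in *gsp*. The *psma5* row had 17452 in the *gsp* mutant, 25468 in its sibling, 22908 in the *rhs* mutant and 24458 in its sibling. Its ratio was 0.685 [0.672, 0.699] in *gsp* and 0.937 [0.920, 0.954] in *rhs*, so that the *gsp* mutant alone stood apart and the other 3 libraries lay within 1.25-fold of each other. For *psma3* the values were 16752, 21772, 17689 and 21489 in the same order of libraries. Here both mutants were low, with ratios of 0.769 in *gsp* and 0.823 in *rhs*.

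The *psma8* row, whose mammalian counterpart is known for its role in the testis, had 25164 and 30826 in the *gsp* mutant and sibling and 27294 and 29143 in the *rhs* mutant and sibling, with ratios of 0.816 and 0.937. It had the most counts of the alpha rows, and no row carried the symbol *psma7*. The *psma1* row differed least of the alpha rows with ratios below 1 in *gsp*, at 0.876 in *gsp* and 0.914 in *rhs*. The remaining alpha rows, *psma2* and *psma4*, had ratios of 0.809 and 0.766 in *gsp* and of 0.847 and 0.899 in *rhs*.

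One alpha row went the other way. The row *psma6b*, a second copy of the *psma6* subunit that RefSeq now lists as *psma6l*, had 261 in the *gsp* mutant, 102 in its sibling, 119 in the *rhs* mutant and 115 in its sibling. The *gsp* mutant was thus the only high library, at a ratio of 2.55 [2.03, 3.25], while the *rhs* ratio was 1.04 [0.794, 1.35]. Its partner *psma6a* had 9660, 12900, 12264 and 13893 in the same order, with ratios of 0.749 in *gsp* and 0.883 in *rhs*. Set within each library, *psma6b* over *psma6a* was 3.41 times as high in the *gsp* mutant as in its sibling and 1.18 times in *rhs*, a measure that does not depend on the scaling. The *psma6b* row lies on chromosome 15 (danRer7, 46841716 to 46850428), and its sibling value was close to the minimum of 100, so that a minimum of 200 drops it. With centring on the median, TMM, the other controls and the pseudocount the *gsp* ratio of *psma6b* was between 2.27 and 2.75. Reads shared by near-identical copies of a gene could be split between them by the counting, so the division between *psma6a* and *psma6b*, and between the other copies named here, is uncertain.

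All 7 constitutive beta rows were below 1 in both lines on the unscaled values, and in *rhs* 1 of the 7 was below the median of all rows, with medians of -0.32 in *gsp* and -0.085 in *rhs*. The proteolytic subunits were not equally low. For *psmb6*, the caspase-like site, the values were 12980 in the *gsp* mutant, 17794 in its sibling, 16672 in the *rhs* mutant and 16762 in its sibling, and only the *gsp* mutant was low, at 0.729 [0.713, 0.746] against 0.995 [0.973, 1.02] in *rhs*. For *psmb5*, the chymotrypsin-like site, they were 25390, 31691, 28197 and 31583, with ratios of 0.801 and 0.893. For *psmb7*, the trypsin-like site, they were 21878, 25578, 24767 and 25932, with ratios of 0.855 and 0.955, the mildest in *gsp* of the beta rows. The structural subunits *psmb1*, *psmb2*, *psmb3* and *psmb4* had *gsp* ratios of 0.851, 0.791, 0.809 and 0.780 and *rhs* ratios of 0.943, 0.849, 0.968 and 0.938.

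The ATPases of the cap varied little among themselves. The 7 rows had ratios between 0.793 and 0.910 in *gsp* and between 0.831 and 0.908 in *rhs*, with median log2 ratios of -0.19 and -0.16. All 7 lay below the median of all rows in *gsp* and 1 in *rhs*. The rows with the most counts, which depend on transcript length too, were *psmc4* and *psmc5*, with 22175 and 22319 in the *gsp* mutant, 26340 and 25100 in its sibling, 24564 and 23536 in the *rhs* mutant, and 27185 and 25911 in its sibling. Their ratios were 0.842 and 0.889 in *gsp* and 0.904 and 0.908 in *rhs*. For *psmc6* the *rhs* ratio was the lower one on the unscaled values, with 17787, 20241, 17014 and 20482 and ratios of 0.879 in *gsp* and 0.831 in *rhs*. The copies *psmc1a* and *psmc1b* had *gsp* ratios of 0.793 and 0.910 and *rhs* ratios of 0.876 and 0.895. The *psmc2* row had 0.899 [0.882, 0.916] in *gsp* and 0.892 [0.876, 0.909] in *rhs*. On the unscaled values *psmc1b* and *psmc2* were thus slightly lower in *rhs* too, but with overlapping intervals. Relative to the median of all rows, the log2 ratio of *psmc2* was -0.045 in *gsp* and 0.033 in *rhs*. That of *psmc1b* was -0.027 and 0.038, so on this scale both were lower in *gsp*.

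The non-ATPase subunits were lower in *gsp* except for *psmd1* and *psmd2*, which encode the large scaffold subunits of the base of the cap. The *psmd1* row had 22462 in the *gsp* mutant, 20089 in its sibling, 20658 in the *rhs* mutant and 22891 in its sibling. Its ratio was 1.12 [1.1, 1.14] in *gsp* and 0.902 [0.886, 0.920] in *rhs*, so that the lines went opposite ways on the unscaled values, but after centring on the median of all rows its *rhs* ratio was above 1 too, at 1.03. The value in the *gsp* mutant was below that of the *rhs* sibling. The *psmd2* gene has 3 rows in the table on chromosome 15 (danRer7, starting at 44255211, 44370094 and 44559301) under 1 gene identifier, so that these are not separate measurements of expression. Their *gsp* ratios were 1.23 [1.19, 1.28], 1.16 [1.13, 1.19] and 1.0 [0.963, 1.04], and their *rhs* ratios 0.967, 0.945 and 0.939, of which the first became 1.11 and the second 1.08 after that centring. The first *psmd2* row had 8133 in the *gsp* mutant and 6592 in its sibling, 7142 in the *rhs* mutant and 7386 in its sibling, and the *gsp* mutant was the highest of the 4.

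Of the 14 non-ATPase rows, 10 were below 1 in *gsp*, or 71.4% beside 65.4% of all rows, and 13 in *rhs*. On the log2 scale the group median was -0.25 for *gsp* and -0.15 for *rhs*. Below the median of all rows lay 10 of the 14 in *gsp* and 2 in *rhs*. The 4 rows of *psmd1* and *psmd2* were the only ones above 1 in *gsp*. That the other 10 were all below 1 there thus follows from setting these apart. The median of those 10 was -0.27 for *gsp* and -0.16 for *rhs*, where 9 were below 1. The lid subunit *psmd8* had 21472, 29146, 28804 and 31654 in the *gsp* mutant, *gsp* sibling, *rhs* mutant and *rhs* sibling. Its *gsp* ratio of 0.737 [0.724, 0.750] was the lowest of the rows grouped as ATPases and non-ATPases of the cap, against 0.910 in *rhs*. Another lid subunit, *psmd13*, was instead the lowest of these rows in *rhs*, with 14159, 16818, 12874 and 16111 and ratios of 0.842 in *gsp* and 0.799 [0.781, 0.818] in *rhs*. For *psmd14*, which removes ubiquitin chains from the substrate, the *rhs* libraries were alike at 15493 and 15457, a ratio of 1.0 [0.980, 1.02], and the *gsp* ratio was 0.831. The copies of the ubiquitin receptor, *psmd4a* and *psmd4b*, had *gsp* ratios of 0.816 and 0.824 and *rhs* ratios of 0.890 and 0.882. The copies *psmd11a* and *psmd11b* had 0.838 and 0.868 in *gsp* and 0.835 and 0.898 in *rhs*.

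Core and cap were set against each other within each library, which needs no scaling. The 15 core rows summed to 0.738 times the 21 cap rows in the *gsp* mutant and 0.812 times in its sibling, a change of 0.909-fold. In the *rhs* mutant and sibling the sums stood at 0.802 and 0.783, a change of 1.02-fold, and between the siblings the ratio differed by 1.04-fold. Without *psma6b*, *psmd1* and *psmd2* the change in *gsp* was 0.944-fold, in *rhs* 1.03-fold and between the siblings 1.03-fold.

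**Figure D2:**
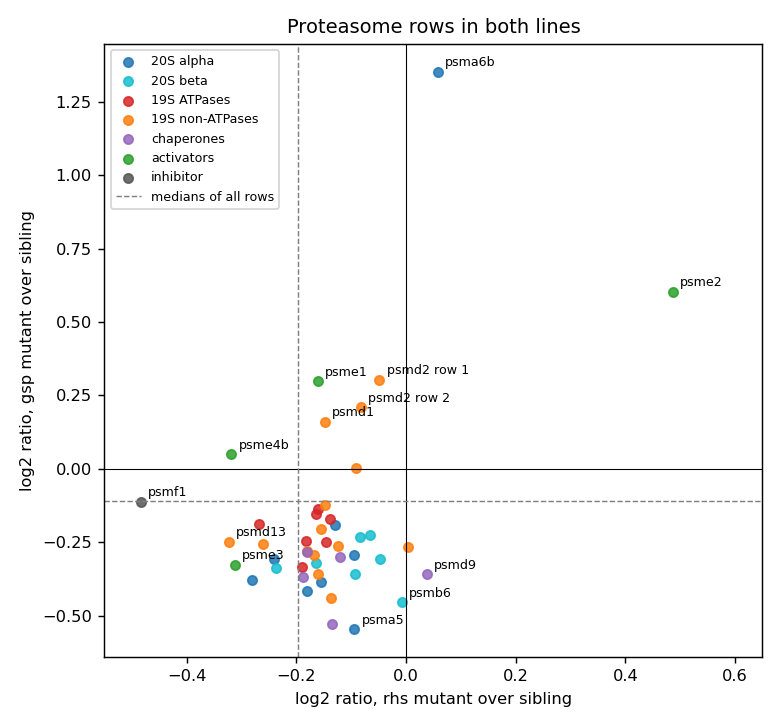
Log2 ratio of mutant over sibling in *gsp* (y axis) against *rhs* (x axis) for the 46 proteasome rows, coloured by group, with the medians of all rows as broken lines. Most rows sit together below 0 in both lines, 36 of the 46 beside 54.6% of all rows. The 8 rows above 0 in *gsp* are *psma6b*, *psme1*, *psme2*, *psme4b*, *psmd1* and the 3 *psmd2* rows.

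The 5 assembly chaperones had a median of -0.36 in *gsp*, where all 5 were below 1, and -0.14 in *rhs*, where 4 were below 1 but none below the median of all rows. For *psmd10* (gankyrin), which binds an ATPase during assembly of the cap, the values were 2627 in the *gsp* mutant, 3788 in its sibling, 3765 in the *rhs* mutant and 4136 in its sibling. The *gsp* mutant was low at 0.693 [0.660, 0.729] and the *rhs* mutant at 0.910 [0.871, 0.952]. The core chaperones *psmg1*, *psmg2* and *psmg3* had *gsp* ratios of 0.812, 0.822 and 0.774 and *rhs* ratios of 0.920, 0.882 and 0.878. The cap chaperone *psmd9* had 2527, 3240, 2317 and 2258, where the *gsp* sibling was the high library. Its *gsp* ratio was 0.780 and its *rhs* ratio 1.03, but the *gsp* sibling was 1.44 times the *rhs* sibling, a larger difference than either.

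The activators differed among themselves. *Psme1* and *psme2* encode the PA28 alpha and beta subunits, which interferon induces in mammals, and both had few counts. The *psme2* row had 534 in the *gsp* mutant, 352 in its sibling, 402 in the *rhs* mutant and 287 in its sibling. Both mutants were above both siblings, at 1.52 [1.32, 1.74] in *gsp* and 1.40 [1.2, 1.64] in *rhs*, and the *gsp* sibling was 1.22 [1.05, 1.44] times the *rhs* sibling. The end of *psme2* overlaps *zgc:171959* on the other strand (chromosome 12, danRer7, *psme2* at 14425483 to 14438005), a row with 3362, 5881, 5491 and 5767 in the same order. The protocol names no strand-specific kit, so reads of the overlap cannot be assigned to either gene, and the part of the overlap in the *psme2* values was not tested. Other members that overlap a row on the opposite strand were *psmd1*, *psme3* and *psmb1*, whose partners (*zgc:194119*, *skap1* and *perp*) had at most 97.6, 205 and 1.

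The *psme1* row differed more between the siblings than between mutant and sibling. It had 474 in the *gsp* mutant, 385 in its sibling, 243 in the *rhs* mutant and 272 in its sibling, and both *gsp* libraries were above both *rhs* libraries. Its ratio was 1.23 [1.07, 1.41] in *gsp* and 0.895 [0.748, 1.07] in *rhs*, and the siblings differed by 1.42-fold. The *psme3* row, the nuclear PA28 gamma, had 6989, 8761, 9256 and 11494, with ratios of 0.798 and 0.805, nearly equal in the lines, while the *gsp* sibling was 0.762 times the *rhs* sibling. The *psme4b* row, which encodes PA200, had 4905, 4736, 4590 and 5725, and only the *rhs* sibling was high, with ratios of 1.04 [0.995, 1.08] in *gsp* and 0.802 [0.771, 0.834] in *rhs*.

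The inhibitor *psmf1* had 898 in the *gsp* mutant, 970 in its sibling, 916 in the *rhs* mutant and 1280 in its sibling. The *rhs* sibling was the 1 high library. The *rhs* ratio of 0.715 [0.657, 0.780] was the lowest in *rhs* of the proteasome rows that reached the minimum. Against the *gsp* sibling the *rhs* mutant was close to 1, since the *gsp* sibling was 0.757 times the *rhs* sibling. The *gsp* ratio was 0.926 [0.845, 1.01].

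**Figure D3:**
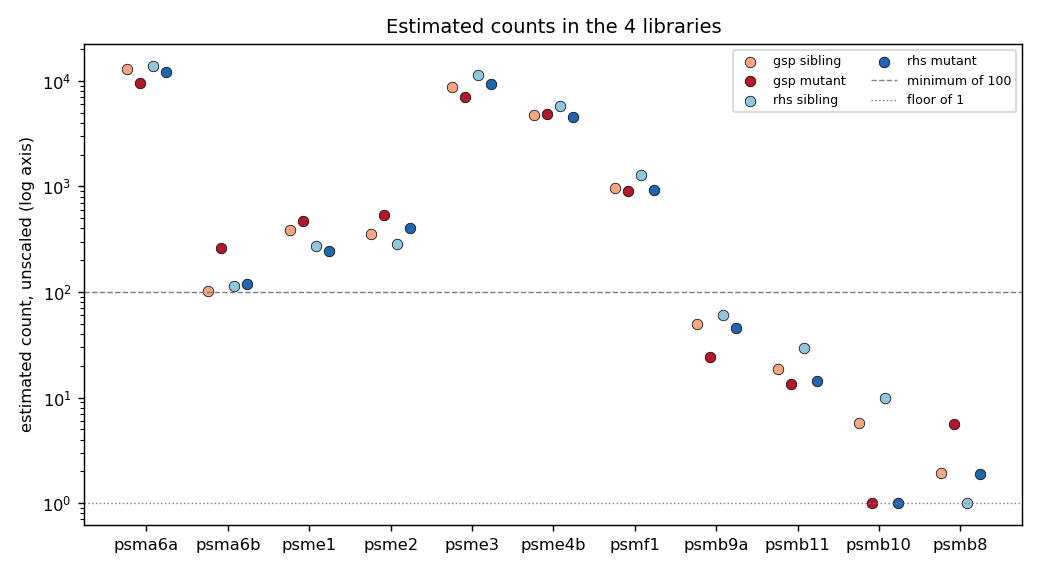
Estimated counts (y axis, log scale, unscaled) of the copies of *psma6*, the activators, the inhibitor and the immune-type subunits (x axis) in the 4 libraries, 1 point per library; the broken line is the minimum of 100 and the dotted line the floor of 1. The *gsp* mutant alone is high for *psma6b*, both mutants are above both siblings for *psme2*, and the immune-type rows are all below 100.

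The immune-type catalytic subunits were barely detected. The 4 rows lie side by side on chromosome 19 (danRer7, 7728379 to 7744909), next to the class I antigen-presenting gene *mhc1uba*. The row *psmb9a*, which replaces *psmb6* in the immunoproteasome, had 24.3 in the *gsp* mutant, 49.5 in its sibling, 45.2 in the *rhs* mutant and 60.9 in its sibling. Each mutant was below its sibling, at 0.490 [0.282, 0.796] in *gsp* and 0.743 [0.490, 1.1] in *rhs*. The *psmb11* row, which RefSeq now lists as *psmb12*, had 13.3, 18.6, 14.3 and 29.7, again with each mutant below its sibling. Its ratio was 0.715 [0.311, 1.46] in *gsp*, an interval that holds 1, and 0.480 [0.229, 0.908] in *rhs*.

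The *psmb10* row, now *psmb13a* in RefSeq, stood at the floor of 1 in both mutants and at 5.71 and 9.85 in the *gsp* and *rhs* siblings. The *psmb8* row, now *psmb8a*, had 5.56, 1.92, 1.90 and 1.0, too few for a ratio. Summed, the 4 rows had 44.2 against 75.8 in *gsp*, a ratio of 0.583 [0.390, 0.850], and 62.4 against 101.5 in *rhs*, a ratio of 0.615 [0.440, 0.850], and 0.747 [0.551, 1.02] between the siblings. Within each library *psmb9a* over *psmb6* changed 0.672-fold in *gsp*, 0.747-fold in *rhs* and 0.766-fold between the siblings. The siblings thus differed from each other by nearly as much as the *rhs* mutant from its sibling, and by less than the *gsp* mutant from its sibling. The neighbour *mhc1uba* had 2.90 and 1.0 in the *gsp* mutant and sibling and 368 and 404 in the *rhs* mutant and sibling, a difference between the lines that the 4 subunit rows did not share.

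Leukocyte markers were read beside these rows, since leukocytes carry the immune-type subunits. Of 12 marker rows, 9 had at least 100 in all libraries. The sum of the 12 was 0.765 times in the *gsp* mutant and 0.951 times in the *rhs* mutant that of the sibling. Without *lyz*, the row with the most counts, the sum was 1.1 and 1.12 times that of the sibling, so that its direction turned in both lines, and the median log2 ratio of the 9 rows was -0.046 and 0.014. The range of the sums of 12 was 15621 to 20409, and *ptprc* (CD45), which marks all leukocytes, was at the floor in all 4. The lysozyme row *lyz* had 6204 and 11877 in *gsp* and 8454 and 10299 in *rhs*, with ratios of 0.522 and 0.821, whereas *lcp1* was 1.39 and 1.40 and *coro1a* 1.22 and 1.23. The part of these cells in the values of the immune-type rows was not tested. Interferon-linked genes that cleared the minimum went several ways, with *irf9* at 1.40 and 1.47, *irf8* at 1.58 and 0.732 and *stat1a* at 0.945 and 0.766 in *gsp* and *rhs*.

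Proteasome rows varied less than the table as a whole. Among rows with a mean of at least 2000, the 42 proteasome rows had a standard deviation of the log2 ratio across rows of 0.18 in *gsp*, 0.083 in *rhs* and 0.136 between the siblings, whereas the 7158 rows of the table at that level had 0.43, 0.496 and 0.727. At that level the interquartile range of the log2 ratios of the proteasome rows was 0.160 in *gsp*, 0.088 in *rhs* and 0.128 between the siblings. For all rows it was 0.333, 0.362 and 0.360. A minimum mean of 2000 does not match the proteasome rows to the table by level. That level leaves out *psma6b*, *psme1*, *psme2* and *psmf1*, among them both rows past the threshold in *gsp*. With them, the 46 rows had standard deviations of 0.32 in *gsp*, 0.136 in *rhs* and 0.171 between the siblings. All rows with at least 100 had 0.42, 0.50 and 0.73, so the contrast was smaller in *gsp*. Subunits of 1 complex are counted here, so the rows are not independent of each other. Between the siblings, no proteasome row was past the threshold, where 8.9% of all rows were higher in the *gsp* sibling and 9.58% lower. The siblings lay within 1.25-fold of each other in 42 of the 46 rows and in 63.4% of all rows, and the 4 exceptions were *psmd9*, *psme1*, *psme3* and *psmf1*.

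**Figure D4:**
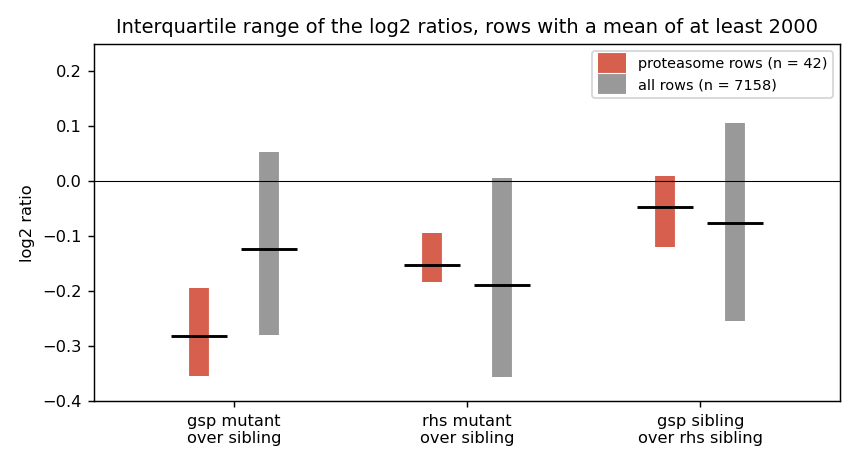
Interquartile range (bars) and median (lines) of the log2 ratios (y axis) in *gsp*, *rhs* and between the siblings (x axis), for proteasome rows and for all rows with a mean of at least 2000. The proteasome bars are the shorter of each pair, and only in *gsp* do they lie below the median of all rows.

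The order of the libraries was looked at row by row. In 33 of the 46 proteasome rows both mutant libraries were below both sibling libraries on the unscaled values, a pattern that 33.4% of all rows had. In 2 rows, *psme2* and *psma6b*, both mutants were above both siblings, as in 10.3% of all rows. The first pattern depended on the scale, being held by 25 rows after division by the library total, 17 with TMM and 11 after centring on the median, beside 20.2%, 21.4% and 18.7% of all rows. That the *gsp* mutant was the lowest of the 4 libraries held for 35 rows unscaled, with TMM and after centring on the median, and for 27 after division by the total, beside 34.9%, 30.6%, 31.1% and 22% of all rows.

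The log2 ratio in *gsp* also moved with the genomic span of a row, from start to end with introns. Over all rows the median was -0.19 in the decile of rows with the shortest spans and -0.0063 in the decile with the longest, whereas in *rhs* it went from -0.19 to -0.26. Proteasome rows are short, with a median span of 10153 bases against 14127 for all rows. Against rows of like span, between 7900 and 14897 bases, the proteasome median in *gsp* was lower by 0.12 on the log2 scale rather than 0.16, and in *rhs* higher by 0.027. Below the median of its own decile of span lay 35 of the 46 rows in *gsp* and 12 in *rhs*. The rows with the longest spans, *psmd1* and *psme4b*, were among the 8 rows above 1 in *gsp*. The part of span in their values was not tested.

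**Figure D5:**
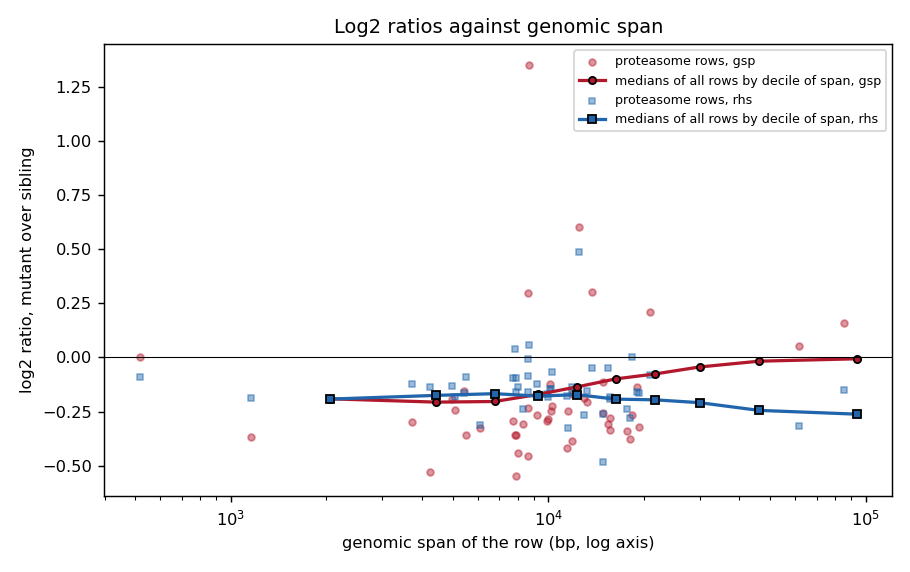
Log2 ratio of mutant over sibling (y axis) against the genomic span of the row in bases (x axis, log scale); points are the 46 proteasome rows and lines join the medians of all 13633 rows in deciles of span, in red for *gsp* and blue for *rhs*. The *gsp* line climbs from -0.21 in the second decile to -0.0063 in the last, the *rhs* line declines to -0.26, and most proteasome points in *gsp* lie below the line.

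Factors that bind or assemble the proteasome under other names made a list of 7 rows, all with at least 100. Their medians were -0.17 in *gsp* and -0.18 in *rhs*, beside -0.11 and -0.20 for all rows. Of these *shfm1*, the small cap subunit also called *sem1*, had 13885 in the *gsp* mutant, 20670 in its sibling, 17283 in the *rhs* mutant and 19254 in its sibling, and was the 1 row of the list past the threshold, at 0.672 [0.657, 0.686] in *gsp* and 0.898 in *rhs*. The deubiquitinases *uchl5* and *usp14* had *gsp* ratios of 0.701 and 0.872 and *rhs* ratios of 0.806 and 0.883.

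Genes that act in the transcription of proteasome genes went several ways. The row *nfe2l1* (Nrf1), which drives proteasome genes when activity is short in mammalian cells, had 443, 337, 890 and 570 in the *gsp* mutant, *gsp* sibling, *rhs* mutant and *rhs* sibling. Its ratios were 1.31 [1.14, 1.52] in *gsp* and 1.56 [1.40, 1.74] in *rhs*, and between the siblings 0.592, so that the lines differed more than the mutants. For *nfe2l2* (Nrf2) the values were 18796, 15278, 18873 and 13287, both mutants above both siblings, with ratios of 1.23 and 1.42. The protease *ddi2*, which cuts Nrf1 free, had 0.885 and 0.908, and *ngly1*, which trims its sugars, 1.05 and 1.03.

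Ubiquitin genes were mixed. Of 10 rows, only *ubb* was past the threshold, in *rhs*, with 80029 and 60097 in the *gsp* mutant and sibling and 74767 and 46075 in the *rhs* mutant and sibling. Both mutants were above both siblings, at 1.33 [1.32, 1.35] and 1.62 [1.6, 1.64], and the *gsp* sibling was 1.3 times the *rhs* sibling. The ubiquitin fusion gene *rps27a* had 0.899 in *gsp* and 0.932 in *rhs*. The list median was 0.017 in *gsp* and -0.096 in *rhs*.

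Among 10 rows of heat shock chaperones and adaptors for misfolded protein, *sqstm1* alone was past the threshold. It encodes p62, which carries ubiquitinated cargo to autophagy. It had 20224 against 5322 in *gsp* and 22752 against 5945 in *rhs*, ratios of 3.80 [3.69, 3.92] and 3.83 [3.72, 3.94]. The 2 mutants were alike and the siblings differed by 0.895-fold. The chaperones *hspa8* and *hsp90ab1* were at 1.26 and 1.28 in *gsp* and at 1.0 and 1.0 in *rhs*, whereas *hsp70l* had 0.797 and 0.972.

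Markers of other cells also differed between the *gsp* libraries. The summed counts of 5 genes of dividing cells were 0.874 times in the *gsp* mutant and 0.968 times in the *rhs* mutant those of the sibling, with *pcna* at 0.800 and 0.982 and *top2a* at 1.45 and 0.841. Without *pcna*, the row with the most counts, the sums of the other 4 were 0.994 and 0.941 times those of the sibling. For 4 periderm genes the sums were 0.528 and 1.12 times those of the sibling, and 0.515 and 1.07 times without *krt4*. Of these *krt4* was at 0.535 and 1.16 and *cldne* at 2.97 and 4.38. The row *cyt1* was at 0.495 and 1.09, and *krt5* was below its sibling in both lines, at 0.458 and 0.758. The summed counts of 4 liver genes were 0.793 and 1.41 times those of the sibling, and 0.781 and 1.23 times without *apoa1b*. The part of these cells in the proteasome values was not tested.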

How the data were processed

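RNA of pooled whole larvae (4 libraries, 1 per group) had been sequenced as paired reads and aligned by the authors with TopHat to danRer7. The authors' methods call the values RPKM from DEGseq, but the deposited columns are headed raw, are floored at 1 and were read here as estimated counts. Neither reading alters the arithmetic of a ratio of 1 row between libraries. As RPKM, however, the values would already be scaled to library size, and division by the library total would scale them again. The intervals hold only for counts. Transcript lengths were not used, so levels were not compared between genes. The authors also deposited normalized log2 columns, used as an alternative only, and tables of their own fold changes per line, which were not used. The labels give 20 larvae per group and the methods another number.

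Rows were grouped by symbol, and RefSeq names were matched for 51 of 51 identifiers. The minimum of 100 and the threshold of 1.48-fold follow the study. With 1 library per group no test, SE or p-value was possible. Intervals are exact Clopper-Pearson at 95% on values rounded to whole counts, and PCR copies are not independent molecules. Named were all immune-type, activator, inhibitor and chaperone rows, rows past the threshold, paralog pairs and, per core or cap group, the 2 highest and 2 lowest by mean log2 ratio and the 2 with the highest mean. Further members were given by their ratios. Of each other list up to 3 were taken by size of the mean log2 ratio. Of these, *ccnb1*, *hspb1*, *nploc4*, *ufd1l* and the ratios of single liver rows were left out of the text. A few more (*ngly1*, *rps27a*, *hspa8*, *hsp90ab1*, *krt4*, *mhc1uba*) were chosen after their values were seen. The members, the 9 other lists and the tests were chosen with earlier results of these data known. Alternatives were scaling (median, TMM of edgeR 4.0.16, and, chosen after seeing the data, library total and the authors' normalized values), a pseudocount of 10, minimums of 50 and 200 or none, a 2-fold threshold, the other sibling or the mean of both as control, 1 row per gene, and the study's filter on agreement between siblings and between mutants. Genomic span was looked at after seeing the data. The computations were tested on simulated data (Python 3.11.15, pandas 2.3.3, SciPy 1.17.1, R 4.3.3). Promoter and protein sequences were not used here.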

Additional observations from a re-analysis of the deposited data

Results flagged for a closer look

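*Psmd1* and 2 of the 3 *psmd2* rows, the scaffold subunits of the base of the cap, went opposite ways in the lines on the unscaled values, with counting intervals that excluded 1 in both. The *gsp* ratio was 1.24 times the *rhs* ratio for *psmd1*, 1.28 times for the first *psmd2* row and 1.22 times for the second. Centred on the median of all rows, both lines were above 1. With the sibling of the other line as control, *psmd1* was at 0.981 in *gsp* and 1.03 in *rhs*, and the 2 *psmd2* rows were above 1 in both lines, at 1.1 and 1.07 in *gsp* and 1.08 and 1.02 in *rhs*. The difference was not tested, since each line has 1 mutant library and 1 sibling library, and the *psmd2* rows share 1 gene identifier. The third *psmd2* row had 1.0 in *gsp* and 0.939 in *rhs*.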

How the results depend on the processing

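No paired analysis was possible because each group has 1 library and the labels give no replicate numbers, and no library could be left out. The median log2 ratio in *gsp* stayed below 0 under every alternative run, at -0.16 centred on the median, -0.20 with TMM and -0.14 by library total. In *rhs* it was 0.046 centred on the median, -0.038 with TMM, -0.078 with the other sibling as control, -0.12 with the mean of the siblings, -0.087 by library total and 0.015 with the authors' normalized values, so its direction depended on the scale. The shares of all rows past the threshold under the alternatives are not given here, so the counts that follow cannot be read against the table. The number of rows higher in *gsp* was 1 with a minimum of 200 (*psme2*), 1 with the agreement filter (*psme2*) and 1 at a 2-fold threshold (*psma6b*), but 3 with the other sibling (*psme1* added) and 3 without a minimum (*psmb8* added). The number lower in *gsp* was 3 with the other sibling (*psma4*, *psmd10*, *psme3*), 1 with the mean of the siblings (*psmd10*) and 1 without a minimum (*psmb9a*). The number higher in *rhs* was 1 centred on the median, 1 with TMM and 1 with the normalized values (*psme2*), and the number lower was 1 with the other sibling (*psme1*) and 1 without a minimum (*psmb11*). The setting without a minimum covered 49 rows in *gsp* and 48 in *rhs*. It left out rows at the floor in either library of the line, *psmb10* in both lines and *psmb8* in *rhs*. Of 70 ratios of named members with at least 100, median centring moved 63 beyond their counting intervals, TMM 57, the other sibling 54, the mean of the siblings 32 and the pseudocount of 10 none. At 100 counts the interval is wide, as for *psma6b*, and counting error is a lower limit on the error between larvae.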

Other observations

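Some interferon-linked genes were below the minimum of 100 in at least 1 library, and those named here were chosen after their values were seen. Of them, *stat1b*, *isg15* and *mxa* were above their siblings in both lines, and *irf1* in *gsp* only. The row *stat1b* had 197 in the *gsp* mutant, 14 in its sibling, 65.3 in the *rhs* mutant and 15.7 in its sibling, ratios of 14.1 [8.19, 26.2] and 4.17 [2.32, 7.52], while its copy *stat1a* was near 1 in *gsp*. The interferon target *isg15* had 61.1 and 50.6 in *gsp* and 115 and 45.8 in *rhs*, *irf1* had 151 and 59.5 in *gsp* and 86.9 and 131 in *rhs*, and *mxa* had 75.3 and 51.1 in *gsp* and 102.8 and 70 in *rhs*. The cytokine *il34*, on the leukocyte list, had 15.9 and 20.6 in the mutants and was at the floor in both siblings. The gene next to the immune-type subunits, *abcb3l1*, a peptide transporter, had 6.80 and 13.5 in *gsp* and 7.21 and 11 in *rhs*, at counts as low as theirs.

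A pair of rows without a psm symbol, chosen by their description after their values were seen, are annotated as proteasome factors. LOC563777, described as similar to ECM29, a scaffold of the proteasome, had 7518 and 6402 in *gsp* and 7654 and 8379 in *rhs*, ratios of 1.17 and 0.913. LOC100333944, described as similar to an assembly chaperone, had 1802 and 2302 in *gsp* and 1792 and 2428 in *rhs*, ratios of 0.783 and 0.738.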
